A study of Homo sapiens with 18 samples.

Results

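The histone genes were the probe sets whose single annotated gene symbol began with HIST, H1-, H2AC, H2BC, H3C, H4C, H2AZ, H2AX, H2AJ, H2AF, H1F, H3F, H3-3, MACROH2A or H4-16. The rule used no measured value and found 58 probe sets of 49 genes among the 22283 probe sets of the Affymetrix HG-U133A array, of which 19071 carried a single gene symbol. Replication-dependent genes accounted for 42 of these probe sets (41 genes), and replacement variants for 16 (8 genes: H1-10, H2AJ, H2AX, H2AZ1, H2AZ2, H3-3A, MACROH2A1 and MACROH2A2). The replication-dependent class held the genes of the histone clusters and, by its symbol, H2BC12L of chromosome 21, which lies outside them. A further 28 probe sets named a histone gene together with other genes, 20 of them histone genes only, and were left out, among them every probe set that names H3-3B.

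Histones package DNA into nucleosomes, in which H2A, H2B, H3 and H4 form the core and linker H1 closes the DNA entering and leaving it. Replication-dependent histone genes lie in clusters, have no introns and are transcribed mainly in S phase, and their mRNA ends in a stem-loop, bound by SLBP, in place of a poly(A) tail. Most replacement variants are made through the cell cycle from single genes with ordinary polyadenylated mRNA, and the variants serve transcription, repair and silenced chromatin. Whether each variant named here, H2AX among them, has only such mRNA was not tested. Labelling for 3' expression arrays of this kind is usually primed on poly(A), so such an array reads mainly polyadenylated transcripts, which are a minority for replication-dependent genes. Levels of different probe sets were not set against each other.

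SK-N-MC cells, an established human line that the labels call neuroepithelioma and the study neuroblastoma, were kept without added pyruvate and given rotenone, a pesticide that blocks mitochondrial complex I and also disturbs microtubules. The 6 groups of 3 arrays combined 1 or 4 weeks (1w and 4w) with a dose of 0, 5 or 50 nM, so that 4w5 nM means 5 nM for 4 weeks, and the 0 nM groups received the vehicle, 0.05% ethanol. Each array carried RNA pooled from 5 dishes of 1 experiment, so the spread between arrays is that between pools of 1 cell line. The labels call the lower dose non-lethal and the study marginally toxic, and both call the higher dose toxic, so the arrays measured the cells that had survived.

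Signals were compared as log2 values with limma over all 18 arrays, and a probe set was called where its p-value, adjusted by Benjamini-Hochberg over the 13711 single-gene probe sets that reached a signal of 50 on 3 or more arrays, was below 0.05. Array medians ran between 87.0 and 102, and no arrays held identical values. The 1w0 nM array 3 stood apart (lowest correlation within 1w0 nM 0.909, against at least 0.965 within the other groups), and 4w5 nM array 3 differed from its group on many histone probe sets. The 18 probe sets of the spiked hybridisation controls averaged 8.91 on the log2 scale on the 6 rotenone arrays of 4 weeks and 9.92 on the other 12, with no overlap (at most 9.10 against at least 9.69). The 1-week group means that the study supplies match these arrays only if 1w5 nM array 2 and 1w50 nM array 3 are exchanged, so results at 1 week are also given without both arrays and with them exchanged. Of 9 measured markers of the Ewing and neuroepithelioma family none had a median signal under 50, while TH, DBH, PHOX2A, HAND2 and CHGA, which mark sympathetic neuroblasts, were 5 of 8 with a median under 50. The other 3 of that list, GATA2, GATA3 and ISL1, had medians of 668, 175 and 96.5.

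Promoters are shown for the 5 genes on which the results turn, since the replication-dependent genes share promoter elements that most genes lack. RefSeq (GRCh38.p14) gave a promoter, 250 bases before to 50 after the start, for 46 of the 49 member genes. The letters TATAAA on either strand stood in 25 of 38 replication-dependent promoters (65.8%), 3 of 8 variant promoters (37.5%) and 12% of all 27305 promoters. CCAAT stood in 33 of 38 (86.8%), 5 of 8 (62.5%) and 35.7%, and the H4 genes were the family with few of them (2 of 7). The octamer ATTTGCAT, to which the factor OCT1 binds in H2B promoters, stood in 8 of 11 H2B, 6 of 8 H2A, 0 of the other replication-dependent and 0 of 8 variant promoters, and in 1.8% of all. The H1 box, AAACACA, stood in all 6 replication-dependent H1 promoters, in none of the other member promoters and in 5.76% of all. Each motif was searched by itself, so matches may share bases, and a match is only a match of letters. In the promoters below, written from 5′ to 3′ along the gene's own strand, capitals mark any of the 4 motifs on either strand.
H1-2 (chr6:26056421-26056720, minus strand): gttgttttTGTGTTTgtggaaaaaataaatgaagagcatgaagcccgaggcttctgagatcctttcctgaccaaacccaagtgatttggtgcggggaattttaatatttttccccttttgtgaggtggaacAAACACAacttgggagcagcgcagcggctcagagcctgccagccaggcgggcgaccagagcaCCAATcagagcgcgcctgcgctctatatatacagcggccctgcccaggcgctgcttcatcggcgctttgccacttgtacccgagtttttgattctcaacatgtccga
H4C7 (chr6:26246947-26247246, minus strand): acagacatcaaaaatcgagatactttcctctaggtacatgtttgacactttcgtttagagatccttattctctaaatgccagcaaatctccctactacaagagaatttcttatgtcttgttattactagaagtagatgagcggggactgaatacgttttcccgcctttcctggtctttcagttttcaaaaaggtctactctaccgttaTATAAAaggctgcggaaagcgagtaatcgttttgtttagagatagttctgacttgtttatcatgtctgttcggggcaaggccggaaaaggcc
H2BC5 (chr6:26157871-26158170, plus strand): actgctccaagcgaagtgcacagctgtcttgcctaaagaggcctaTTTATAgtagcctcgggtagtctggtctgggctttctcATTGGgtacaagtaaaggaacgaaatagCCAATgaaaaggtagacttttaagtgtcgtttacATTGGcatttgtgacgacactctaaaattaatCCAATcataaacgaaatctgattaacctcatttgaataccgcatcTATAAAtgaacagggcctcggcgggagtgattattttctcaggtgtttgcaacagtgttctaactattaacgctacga
H2BC12 (chr6:27146809-27147108, minus strand): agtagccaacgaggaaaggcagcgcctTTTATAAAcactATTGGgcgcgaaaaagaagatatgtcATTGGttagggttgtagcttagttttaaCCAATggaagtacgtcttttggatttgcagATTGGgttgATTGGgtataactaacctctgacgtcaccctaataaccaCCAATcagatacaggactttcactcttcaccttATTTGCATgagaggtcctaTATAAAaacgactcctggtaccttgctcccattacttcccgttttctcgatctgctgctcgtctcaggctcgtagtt
H2AX (chr11:119095416-119095715, minus strand): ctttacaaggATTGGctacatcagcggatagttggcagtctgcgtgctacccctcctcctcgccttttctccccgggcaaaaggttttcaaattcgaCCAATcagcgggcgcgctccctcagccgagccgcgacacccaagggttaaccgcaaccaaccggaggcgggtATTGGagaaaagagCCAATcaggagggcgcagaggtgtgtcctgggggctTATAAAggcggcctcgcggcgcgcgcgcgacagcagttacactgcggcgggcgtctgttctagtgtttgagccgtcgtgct
H1-2, which fell most with 5 nM at 4 weeks, carries H1 boxes and a CCAAT box, whereas H4C7, which fell at both doses, matches only TATAAA. H2BC5 and H2BC12, both H2B genes, had opposite calls with 5 nM at 4 weeks, and H2AX is the variant with the largest fall.

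Most of the clustered genes were dim. The filter kept 34 of the 58 probe sets, 19 replication-dependent (18 genes) and 15 variant (7 genes), and the 24 left out were 23 replication-dependent probe sets and that of H2AJ, an H2A variant. No signal among these 24 exceeded 53.6 on any array. Of the 18 replication-dependent genes that passed, 14 were annotated over 386 to 787 bases, the size of an intronless histone gene, and H2BC5, H2BC12, H2BC21 and H3C6 over more than 1000 bases, which includes longer transcripts.

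After 4 weeks at 5 nM, 13 of the 34 histone probe sets fell and 1 rose, where 14.1% of all tested probe sets fell and 18.3% rose. The falls were 8 of 19 replication-dependent and 5 of 15 variant probe sets, and the rise was that of H2BC12. The median change was -0.52 for replication-dependent and -0.30 for variant probe sets on the log2 scale, and 0.03 over all probe sets. Within the replication-dependent class, H2B held 5 of the 8 falls (of 8 tested, median -0.73), while H1 had 1 of 2, H2A 1 of 3, H4 1 of 4 and H3 0 of 2. The H2B falls were those of both H2BC5 probe sets and of H2BC6, H2BC12L and H2BC13. All but that of H2BC13 came from x-suffix probe sets, whose probes may also bind related transcripts, so they may not be separate changes. After 4 weeks at 50 nM, 11 of the 34 fell and 0 rose, 5 replication-dependent and 6 variant, where 18.1% of all fell and 22.9% rose. The median was -0.06 for replication-dependent and -0.32 for variant probe sets, against 0.01 over all. The count of 0 rises is limma's after adjustment, and at an unadjusted p below 0.05 limma passed 18 of the 34 in either direction (52.9%), where 49.2% of all probe sets passed. Without 4w5 nM array 3 the counts were 10 falls and 1 rise at 5 nM, and 12 falls and 2 rises at 50 nM. Different probe sets made up the 5 nM counts there, and the rise was not that of H2BC12, whose call was lost (limma adjusted p = 0.0681). Falls of H2AZ2, H2BC13 and MACROH2A1 on 207168_s_at and 214500_at were lost too. Without 4w0 nM array 1 the counts were 8 falls and 0 rises at 5 nM, and without 4w0 nM array 2 7 falls and 1 rise at 5 nM and 7 falls and 0 rises at 50 nM. The log2 ratio of the 3' to the 5' actin control, a sign of RNA quality, was 0.06, -0.01 and 0.09 on the 5 nM arrays and 0.21, 0.17 and 0.13 on the 50 nM arrays, against -0.06, -0.04 and -0.09 with vehicle, without overlap between either dose and vehicle, and its part in the histone results was not tested. In RNA from whole dishes, fewer cells of a kind and less RNA per cell cannot be told apart.

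**Figure D1:**
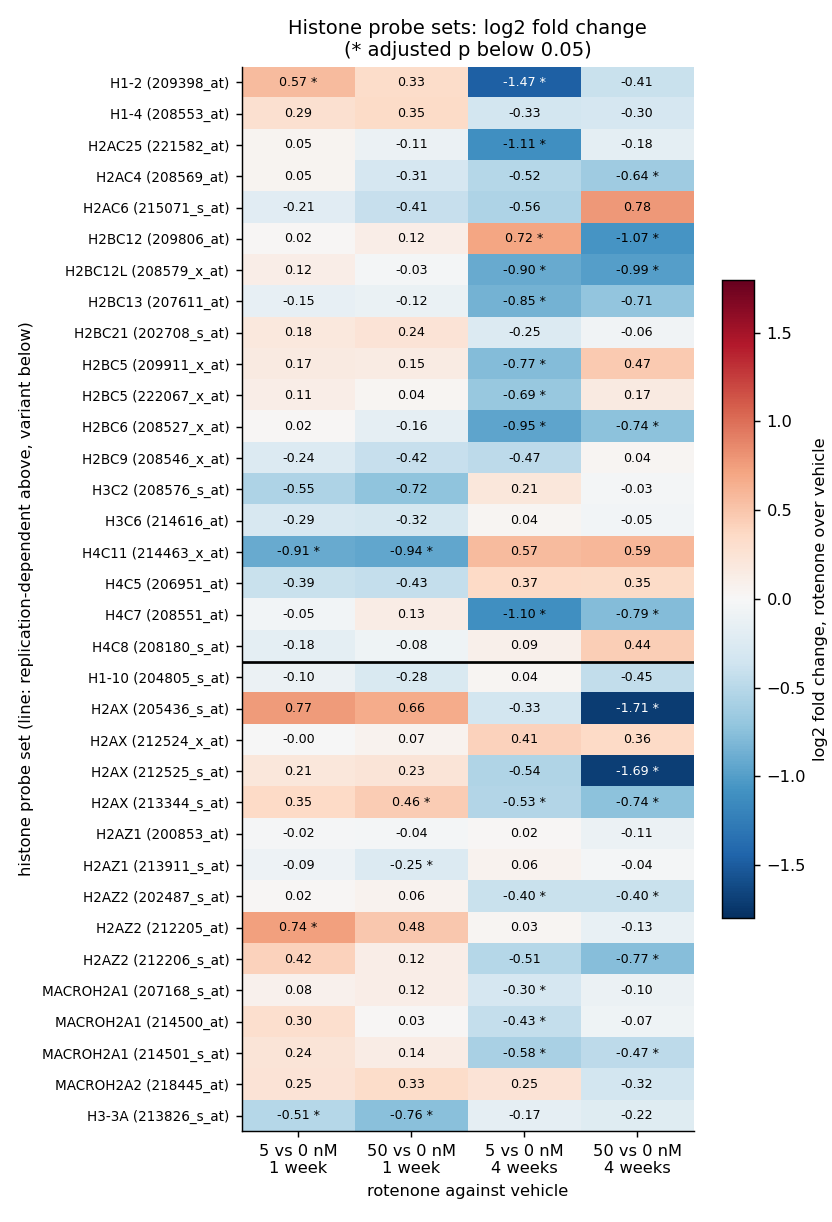
Log2 fold changes of the 34 tested histone probe sets (rows, replication-dependent above the line and variants below) with rotenone over vehicle, for 5 and 50 nM at 1 and 4 weeks (columns), with an asterisk where the limma adjusted p was below 0.05. The 4-week columns hold 14 and 11 asterisks, against 4 in each 1-week column, and all of those at 4 weeks but that of H2BC12 at 5 nM mark falls.

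The linker gene H1-2, which encodes a widely expressed somatic H1, had the largest fall with 5 nM. At 4 weeks its signals were 325, 393 and 366 with 0 nM, 145, 133 and 114 with 5 nM and 250.0, 269 and 299 with 50 nM. Every 5 nM array lay below every 50 nM array, and every 50 nM array below every vehicle array. H1-2 fell by 1.47 ± 0.16 on the log2 scale with 5 nM (SE; limma adjusted p = 1e-05), to 131 ± 15.8 against 361 ± 34.5 with vehicle (SD, n = 3 each), and this held in every setting tried. With 50 nM the change was -0.41 ± 0.16 (limma adjusted p = 0.056), and 50 nM was higher than 5 nM by 1.06 ± 0.16 (adjusted p = 0.000616). At 1 week the same gene went the other way. Its signals were 351, 393 and 377 with 5 nM and 295, 186 and 289 with vehicle, without overlap, a rise of 0.57 ± 0.16 (limma adjusted p = 0.044). That call was lost without any 1 of 13 arrays, 1w5 nM arrays 1 to 3, 1w0 nM array 2 and 9 arrays outside this comparison, with the largest shift without 1w0 nM array 2 (0.35, adjusted p = 0.141). It was also lost without both doubted arrays (adjusted p = 0.171) and with them exchanged (adjusted p = 0.169). The other linker gene tested, H1-4, passed no comparison, with -0.33 ± 0.29 for 5 nM at 4 weeks.

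**Figure D2:**
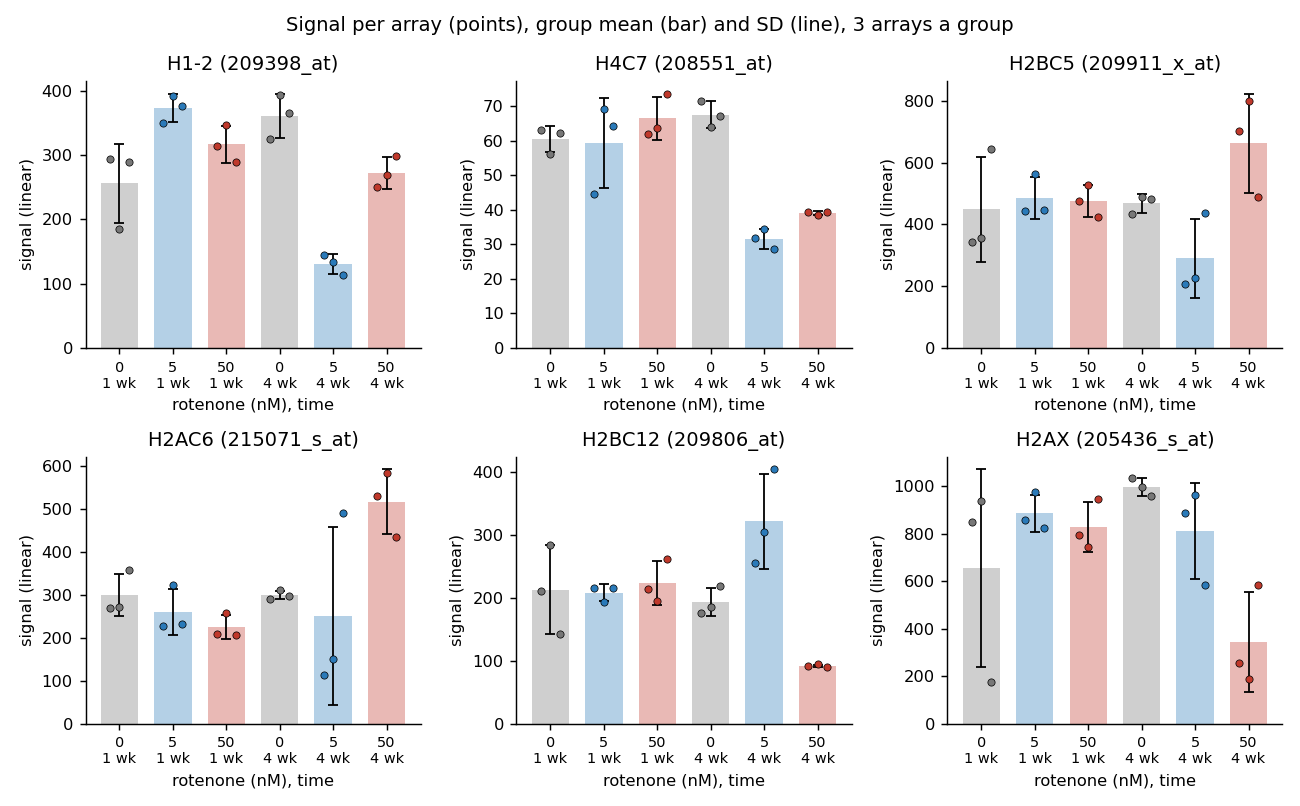
Linear signal of 6 histone probe sets on each array (points) with the group mean (bar) and SD (line) in the 6 groups of 3 arrays, ordered by week and dose. H1-2 is lowest with 5 nM at 4 weeks (mean 131), H2BC12 is highest there (mean 321), and H2AX is lowest with 50 nM at 4 weeks (mean 343).

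Among core H2A genes, the lower dose was the one with a called fall in H2AC25, a core H2A gene of chromosome 1. Its 4-week signals were 369, 360.1 and 305 with 0 nM, 189.8, 145 and 147 with 5 nM and 348, 372 and 216 with 50 nM. All 5 nM arrays lay below all vehicle arrays, and 50 nM array 3 lay between the levels of the other 50 nM arrays and those of 5 nM. H2AC25 fell by 1.11 ± 0.27 with 5 nM (limma adjusted p = 0.00431), changed by -0.18 ± 0.27 with 50 nM (adjusted p = 0.618), and was higher with 50 than with 5 nM by 0.93 ± 0.27 (adjusted p = 0.0234). The last call was lost without 4w5 nM array 2 (0.0867), 4w5 nM array 3 (0.0568), 4w50 nM array 1 (0.106) or 4w50 nM array 2 (0.112), where the brackets give limma's adjusted p. H2AC6, a core H2A gene of chromosome 6, was split by 1 array. Its 4-week signals were 292, 311 and 297 with 0 nM, 114, 150.1 and 491 with 5 nM and 530.0, 585 and 436 with 50 nM. The 5 nM arrays 1 and 2 lay below, and array 3 above, every vehicle array, while every 50 nM array lay above every vehicle array. Against vehicle the changes were -0.56 ± 0.35 with 5 nM and 0.78 ± 0.35 with 50 nM (limma adjusted p = 0.226 and 0.0823), and 50 nM exceeded 5 nM by 1.34 ± 0.35 (adjusted p = 0.0134). That difference was 1.98 without 4w5 nM array 3, and lost its call without 4w5 nM array 1 (0.0772), 4w5 nM array 2 (0.0744), 4w50 nM array 1 (0.0546) or 4w50 nM array 2 (0.0601). H2AC4, singled out after its values were seen, fell by 0.64 ± 0.23 with 50 nM at 4 weeks (limma adjusted p = 0.0301), a call lost without 4w0 nM array 1 (0.0665), 4w0 nM array 2 (0.116), 4w50 nM array 2 (0.091) or 4w50 nM array 3 (0.0693).

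H2B genes gave most of the replication-dependent falls with 5 nM, and they did not move as 1 group. H2BC5, on chromosome 6, was read by 2 probe sets whose x suffix marks probes that may also bind related transcripts. On probe set 209911_x_at its 4-week signals were 434, 489 and 481 with 0 nM, 206, 227 and 437 with 5 nM and 702, 799.6 and 487 with 50 nM. Array 3 of 5 nM reached the vehicle arrays, and every 50 nM array was above every 5 nM array. H2BC5 fell by 0.77 ± 0.27 with 5 nM (limma adjusted p = 0.0329), changed by 0.47 ± 0.27 with 50 nM (adjusted p = 0.164), and was higher with 50 than with 5 nM by 1.25 ± 0.27 (adjusted p = 0.00417), the last in every setting tried. The fall with 5 nM was lost without 4w0 nM array 1 (0.0576), 4w0 nM array 2 (0.0875), 4w0 nM array 3 (0.0853), 4w5 nM array 1 (0.152) or 4w5 nM array 2 (0.119). The second probe set, 222067_x_at, gave 287, 351 and 325 with 0 nM, 170.2, 184 and 251 with 5 nM and 331, 476 and 294 with 50 nM at 4 weeks. It did not overlap between 5 nM and vehicle or between the doses, and fell by 0.69 ± 0.20 with 5 nM (limma adjusted p = 0.0157) with a difference between doses of 0.85 ± 0.20 (adjusted p = 0.00869). Its fall was lost without 4w0 nM array 2 (0.0623), 4w5 nM array 1 (0.0729) or 4w5 nM array 2 (0.0534), and the difference without 4w50 nM array 2 (0.0605).

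H2BC12, another H2B gene of chromosome 6, had the opposite call to H2BC5 with 5 nM. Its 4-week signals were 175, 185 and 218 with 0 nM, 256, 305 and 404 with 5 nM and 91.1, 93.9 and 90.1 with 50 nM, so that none of the 3 groups overlapped, with 5 nM highest and 50 nM lowest. H2BC12 rose by 0.72 ± 0.21 with 5 nM (limma adjusted p = 0.0131) and fell by 1.07 ± 0.21 with 50 nM (adjusted p = 0.000598), and 50 nM was below 5 nM by 1.78 ± 0.21 (adjusted p = 0.000305). It was the histone probe set with opposite calls at the 2 doses. The fall and the difference between doses held in every setting tried, while the rise was lost without 4w0 nM array 1 (0.0541) or 4w5 nM array 3 (0.0681), where the change without 4w5 nM array 3 was 0.54. H2BC12 is annotated over more than 1000 bases, beyond the length of the intronless genes, and which of its transcripts this probe set read was not tested.

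H2BC6, on chromosome 6, and H2BC12L, a related gene on chromosome 21, had x-suffix probe sets that moved alike from array to array, and shared hybridisation cannot be told apart from separate changes. H2BC6 had 4-week signals of 120.4, 167 and 162 with 0 nM, 62.0, 77.7 and 93.5 with 5 nM and 75.5, 142 and 64.7 with 50 nM. H2BC12L had 126, 179 and 186 with 0 nM, 71.7, 89.7 and 100.1 with 5 nM and 76.4, 127 and 55.6 with 50 nM. In both, every 5 nM array was below every vehicle array, and of the 50 nM arrays array 2 was within the vehicle range and the others below it. H2BC6 fell by 0.95 ± 0.24 with 5 nM and 0.74 ± 0.24 with 50 nM (limma adjusted p = 0.00646 and 0.0212), and H2BC12L by 0.90 ± 0.26 and 0.99 ± 0.26 (adjusted p = 0.0121 and 0.00533). The fall of H2BC6 with 50 nM was lost without 4w0 nM array 2 (0.0788), 4w0 nM array 3 (0.073), 4w50 nM array 1 (0.0947) or 4w50 nM array 3 (0.115), and that of H2BC12L with 5 nM without 4w0 nM array 3 (0.0556) or 4w5 nM array 1 (0.0579). H2BC13, singled out after its values were seen, had 4-week signals of 25.2, 26.4 and 18.4 with 5 nM, against 54.7, 41.0 and 32.2 with vehicle. It fell by 0.85 ± 0.31 with 5 nM (limma adjusted p = 0.0453), while the change was -0.38 with signals floored at 32 in place of 16 (adjusted p = 0.249) and -0.56 with a started log (adjusted p = 0.0575). The call was also lost without any 1 of 10 arrays, including 4w5 nM arrays 1 to 3 and 4w0 nM array 2 (adjusted p up to 0.146). H2BC9 and H2BC21 passed no comparison.

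The H4 genes held both a fall at each dose and a turn between the weeks. H4C7, a divergent H4 gene of chromosome 6, had 4-week signals of 71.5, 63.8 and 67.0 with 0 nM, 31.7, 34.5 and 28.5 with 5 nM and 39.4, 38.5 and 39.3 with 50 nM, and all rotenone arrays were below all vehicle arrays. H4C7 fell by 1.10 ± 0.17 with 5 nM and by 0.79 ± 0.17 with 50 nM (limma adjusted p = 0.000127 and 0.00124), and the doses differed by 0.31 ± 0.17 (adjusted p = 0.22). Both falls held in every setting that still tested H4C7, although the levels under rotenone were below the filter's 50. H4C11, read by an x-suffix probe set, had 1-week signals of 135, 98.5 and 95.9 with 0 nM, 61.9, 56.6 and 54.7 with 5 nM and 54.1, 47.0 and 70.7 with 50 nM, again without overlap with vehicle. At 4 weeks they were 62.7, 84.8 and 97.8 with 0 nM, 141, 144 and 84.2 with 5 nM and 91.3, 119 and 165 with 50 nM, and the groups overlapped. H4C11 fell at 1 week by 0.91 ± 0.25 with 5 nM and 0.94 ± 0.25 with 50 nM (limma adjusted p = 0.034 and 0.0117), and the changes at 4 weeks were 0.57 ± 0.25 and 0.59 ± 0.25 (adjusted p = 0.0833 and 0.0614). The change at 4 weeks exceeded that at 1 week by 1.48 ± 0.35 for 5 nM and 1.53 ± 0.35 for 50 nM (limma adjusted p = 0.00383 and 0.00174), in every setting tried. At 1 week the 5 nM call was lost without 1w0 nM array 1 (0.107), 1w5 nM array 1 (0.0631), 1w5 nM array 2 (0.119) or 1w5 nM array 3 (0.0946) and also without both doubted arrays (0.116) or with them exchanged (0.0629), and the 50 nM call without 1w0 nM array 1 (0.0603) or 1w50 nM array 2 (0.0607). H4C8 and the H3 genes tested, H3C2 and H3C6, passed no comparison, and H4C5, singled out after its values were seen, passed only in the difference between weeks.

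Among the variants, H2AX, the H2A that is phosphorylated at DNA breaks, showed the largest fall, with the higher dose at 4 weeks. Probe set 205436_s_at gave 4-week signals of 1035, 998 and 961 with 0 nM, 888, 964 and 585 with 5 nM and 256, 189.6 and 584 with 50 nM. All 50 nM arrays were below all vehicle arrays, with arrays 1 and 2 furthest, and array 3 of 50 nM was level with array 3 of 5 nM. H2AX fell by 1.71 ± 0.46 with 50 nM (limma adjusted p = 0.00694), to 343 ± 211 against 998 ± 36.9 with vehicle (SD, n = 3 each). The second probe set, 212525_s_at, gave 294, 274 and 254 with 0 nM, 199, 260.1 and 129 with 5 nM and 78.6, 55.3 and 141 with 50 nM, and fell by 1.69 ± 0.36 with 50 nM (limma adjusted p = 0.00127). The third, 213344_s_at, gave 162, 138 and 133 with 0 nM, 107, 93.9 and 98.0 with 5 nM and 95.9, 75.7 and 88.0 with 50 nM, and fell by 0.53 ± 0.15 with 5 nM and 0.74 ± 0.15 with 50 nM (limma adjusted p = 0.0107 and 0.000776). The 3 falls with 50 nM held in every setting that still tested the probe set, and the fall with 5 nM was lost without 4w0 nM array 1 (0.0582). The setting without s or x suffixes tested none of the H2AX probe sets. The fourth probe set, 212524_x_at, was dim and did not share the direction, with 0.41 ± 0.16 for 5 nM and 0.36 ± 0.16 for 50 nM (adjusted p = 0.0581 and 0.0837). Of the same gene, the first and second probe sets were lower with 50 than with 5 nM by 1.38 ± 0.46 and 1.15 ± 0.36 (limma adjusted p = 0.0492 and 0.0356). The first of these calls was lost without any 1 of 13 arrays, 4w50 nM arrays 1 and 2, 4w5 nM arrays 1 and 2 and 9 arrays outside the comparison (adjusted p up to 0.215), and the second without 4w5 nM array 1 (0.0909), 4w5 nM array 2 (0.162), 4w50 nM array 1 (0.119) or 4w50 nM array 2 (0.183). At 1 week, 213344_s_at had signals of 139, 181 and 189 with 50 nM, against 113, 134 and 121 with vehicle, without overlap. It rose by 0.46 ± 0.15 (limma adjusted p = 0.0325), which was lost without 1w0 nM array 1 (0.114), 1w50 nM array 2 (0.114) or 1w50 nM array 3 (0.113) and also without both doubted arrays (0.113) or with them exchanged (0.133).

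MACROH2A1, a large H2A variant found in silenced chromatin, was lower with 5 nM at 4 weeks on all 3 of its probe sets. On 214501_s_at the signals were 1534, 1670.0 and 1675 with 0 nM, 1213, 1185 and 886 with 5 nM and 1053, 1063 and 1449 with 50 nM, and every rotenone array was below every vehicle array. It fell by 0.58 ± 0.13 with 5 nM in every setting tried, and by 0.47 ± 0.13 with 50 nM (limma adjusted p = 0.00275 and 0.00881), the second call being lost without 4w50 nM array 1 (0.0532). The falls with 5 nM on 207168_s_at and 214500_at were 0.30 ± 0.09 and 0.43 ± 0.15 (limma adjusted p = 0.0212 and 0.034), while with 50 nM they changed by -0.10 ± 0.09 and -0.07 ± 0.15 without a call. The first was lost without 4w0 nM array 1 (0.0545), 4w0 nM array 2 (0.0673) or 4w5 nM array 3 (0.0932) and the second without 4w0 nM array 1 (0.0517), 4w0 nM array 2 (0.134), 4w0 nM array 3 (0.0616) or 4w5 nM array 3 (0.164), and without 4w5 nM array 3 the changes were -0.20 and -0.26. MACROH2A2, its paralog, had 4-week signals of 833, 679 and 471 with 0 nM, 663, 783 and 863 with 5 nM and 521, 435 and 599.8 with 50 nM. It was lower with 50 than with 5 nM by 0.57 ± 0.19 (limma adjusted p = 0.0428), without overlap between the doses, and that call was lost without any 1 of 11 arrays, 4w50 nM arrays 1 and 2, 4w5 nM arrays 2 and 3 and 7 arrays outside the comparison (adjusted p up to 0.184).

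H2AZ1 and H2AZ2 encode the H2A.Z proteins of promoter nucleosomes. H2AZ1 on probe set 200853_at was not called in any comparison, and on 213911_s_at it had 1-week signals of 3053, 3003 and 3329 with 50 nM, against 3971, 3975 and 3239.8 with vehicle, which overlapped. That probe set fell by 0.25 ± 0.08 (limma adjusted p = 0.0289), a call lost without 1w0 nM array 1 (0.126), 1w0 nM array 2 (0.119), 1w50 nM array 1 (0.1) or 1w50 nM array 2 (0.107) and with the doubted arrays exchanged (0.0563). H2AZ2 on 202487_s_at had 4-week signals of 1746, 1862 and 1750.0 with 0 nM, 1505, 1647 and 1004 with 5 nM and 1239.8, 1317 and 1521 with 50 nM, and each rotenone array was below each vehicle array. It fell by 0.40 ± 0.14 with 5 nM and 0.40 ± 0.14 with 50 nM (limma adjusted p = 0.042 and 0.0344). The 5 nM call was lost without any 1 of 8 arrays, 4w0 nM arrays 1 to 3, 4w5 nM array 3 (leaving -0.18) and 4 arrays outside the comparison, and the 50 nM call without 4w0 nM array 1 (0.0649), 4w0 nM array 2 (0.0984), 4w0 nM array 3 (0.0674), 4w50 nM array 1 (0.132) or 4w50 nM array 2 (0.088). On 212206_s_at the change was -0.51 ± 0.25 with 5 nM (limma adjusted p = 0.124), and the fall with 50 nM was 0.77 ± 0.25 (adjusted p = 0.0193), lost without 4w0 nM array 2 (0.0561), 4w50 nM array 1 (0.104) or 4w50 nM array 2 (0.0785). The third probe set of H2AZ2, 212205_at, did not share these falls, with 0.03 ± 0.20 for 5 nM and -0.13 ± 0.20 for 50 nM at 4 weeks.

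At 1 week, 2 of the 34 histone probe sets rose and 2 fell with 5 nM, where 4.79% of all probe sets rose and 1.88% fell, and 1 rose and 3 fell with 50 nM, where 8.21% rose and 13.6% fell, counts too small to set apart from that background. With the doubted arrays left out, 0 were called with 5 nM and 3 with 50 nM, and with them exchanged 1 and 3. The 5 nM count was 0 without any 1 of the 1w5 nM arrays and 2 without 1w0 nM array 1 or 2, 1w50 nM array 2 or any 1 of the 4w0 nM arrays, and the 50 nM count was 1 without 1w0 nM array 1 or 1w50 nM array 2. The call at 1 week that held in every setting tried was the fall with 50 nM of H3-3A, which encodes the replacement H3.3. Its signals were 186, 211 and 186 with 0 nM, 130.2, 138 and 139 with 5 nM and 119.7, 104 and 121 with 50 nM at 1 week, and every rotenone array was below every vehicle array. H3-3A fell by 0.51 ± 0.14 with 5 nM and 0.76 ± 0.14 with 50 nM (limma adjusted p = 0.0382 and 0.00164). The 5 nM call was lost without 1w0 nM array 1 (0.06), 1w0 nM array 2 (0.0871), 1w5 nM array 1 (0.0998), 1w5 nM array 2 (0.111), 1w5 nM array 3 (0.0817) or 4w0 nM array 1 (0.0511) and without both doubted arrays (0.119), and was kept with them exchanged. At 4 weeks the changes of H3-3A were -0.17 ± 0.14 and -0.22 ± 0.14, with no call. H2AZ2 on 212205_at rose at 1 week by 0.74 ± 0.20 with 5 nM (limma adjusted p = 0.0387), on signals of 732, 722 and 694 with 5 nM against 539, 526 and 279 with vehicle, without overlap. Vehicle array 3 was the low one, and without it the change was 0.43 (adjusted p = 0.077). The call was also lost without 1w5 nM array 1 (0.092), 1w5 nM array 2 (0.128), 1w5 nM array 3 (0.0826), 1w50 nM array 2 (0.0518), 4w0 nM array 2 (0.0525) or 4w0 nM array 3 (0.0526) and also without both doubted arrays (0.142) or with them exchanged (0.0727). Between the doses at 1 week no histone probe set was called, where 0.00729% of all were. None had an unadjusted p below 0.05 by limma either, where 14.7% of all probe sets did. Between vehicle arrays of 4 weeks and 1 week, the same probe set of H2AZ2 was the 1 histone call (of 2.65% higher and 0.605% lower over all), with 0.98 ± 0.20 (limma adjusted p = 0.0126), which was 0.66 without 1w0 nM array 3 and lost without 4w0 nM array 2 (0.0725) or 4w0 nM array 3 (0.0654). H1-10, a replacement linker histone, passed no comparison. Its change with 50 nM at 4 weeks was -0.45 ± 0.19 (adjusted p = 0.0691), on signals of 568, 535 and 736 with 50 nM and 804, 845 and 837 with vehicle, without overlap.

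The change itself was then set between the weeks. The change with 5 nM was more negative at 4 weeks than at 1 week for 10 of the 34 histone probe sets and more positive for 2, where 16.8% and 15.4% of all probe sets were. For 50 nM the counts were 10 and 3, where 19.7% and 25.5% of all were. H1-2 had the largest such difference with 5 nM, -2.04 ± 0.23 (limma adjusted p = 9.84e-06), and H2AX on 205436_s_at with 50 nM, -2.37 ± 0.65 (adjusted p = 0.00698), both in every setting tried. The H2AX value includes 1w0 nM array 3, which at 176 lay far under 849 and 939 on the other vehicle arrays of 1 week, and without that array the difference between weeks was -1.59. Without both doubted arrays the 2 counts were 6 and 10 in all, against 12 and 13 with them. The 5 nM count was 7 without 1w5 nM array 1, 4w0 nM array 2 or 4w0 nM array 3 and 6 without 1w5 nM array 2, and the 50 nM count was 8 without 1w50 nM array 2.

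Between 50 nM and 5 nM at 4 weeks, the calls of replication-dependent genes lay mostly upwards and those of variants downwards. Of 19 replication-dependent probe sets 5 were higher and 1, H2BC12, was lower with 50 nM, and of 15 variant probe sets 0 were higher and 3 lower, where 9.53% of all probe sets were higher and 7.07% lower. On chromosome 6, which holds most of the replication-dependent genes, 29.9% of the other tested genes were higher and 2.06% lower. The median difference was 0.19 for replication-dependent and -0.13 for variant probe sets, and 0.00 over all. The 5 higher ones were H1-2, H2AC25, H2AC6 and both probe sets of H2BC5, and the variants lower were H2AX (2 probe sets) and MACROH2A2. Without 4w5 nM array 3 the counts over both classes were 4 higher and 3 lower, against 5 and 4 with it. They were 2 and 1 without 4w50 nM array 2, 3 and 1 without 4w50 nM array 1, and 4 and 1 without 4w5 nM array 2. The 3 comparisons at 4 weeks share arrays, so their counts are not independent of each other.

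**Figure D3:**
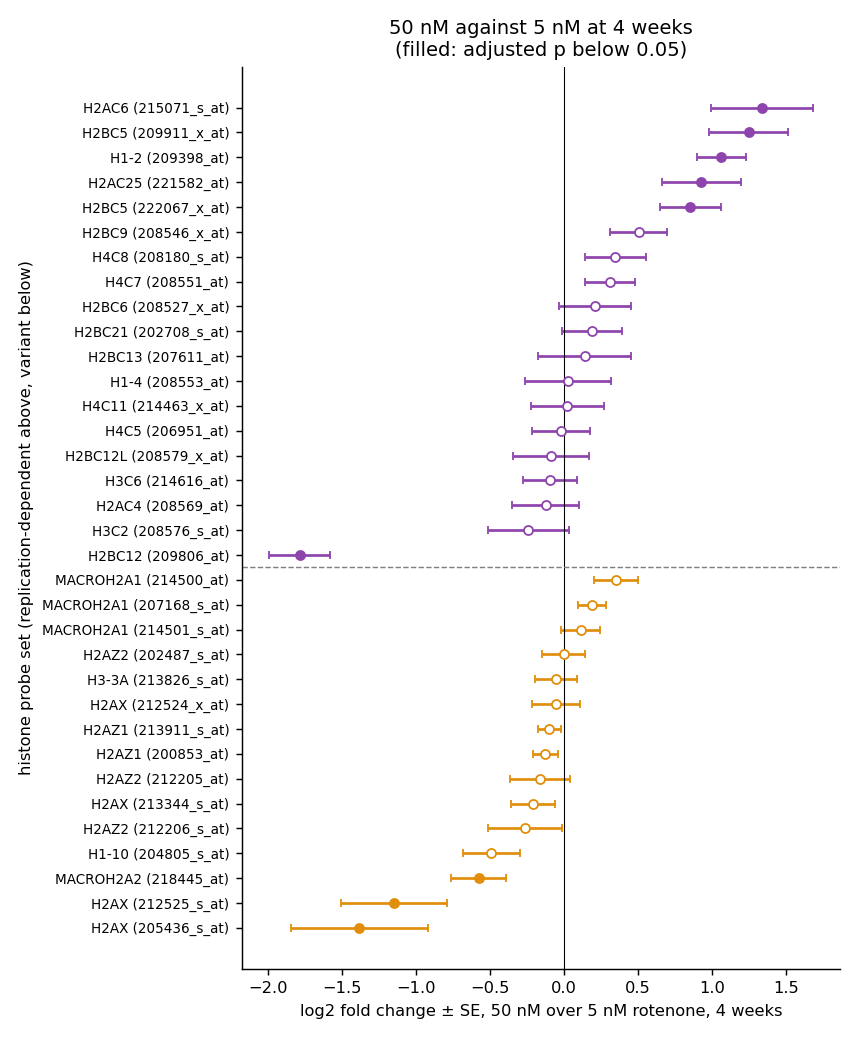
Log2 difference with its SE for each of the 34 tested histone probe sets, 50 nM over 5 nM rotenone at 4 weeks, replication-dependent above and variant below, filled where the limma adjusted p was below 0.05. The filled replication-dependent points lie to the right of 0 except H2BC12 (-1.78), and the filled variant points, H2AX and MACROH2A2, to the left.

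Read as classes over the 6 groups, with 1 probe set per gene and each gene's log2 signal taken from its own mean over the 18 arrays, the replication-dependent median (18 genes) was 0.09 ± 0.13, 0.06 ± 0.06 and -0.04 ± 0.11 at 1 week and 0.12 ± 0.07, -0.30 ± 0.11 and 0.03 ± 0.09 at 4 weeks, each time for 0, 5 and 50 nM (SD, n = 3 each). The variant median (7 genes) was 0.02 ± 0.17, 0.05 ± 0.06 and 0.04 ± 0.05 at 1 week and 0.14 ± 0.03, -0.01 ± 0.12 and -0.22 ± 0.13 at 4 weeks. So the replication-dependent class was lowest with 5 nM at 4 weeks, with all 3 arrays below all others of 4 weeks. The mean of the variant class was lowest with 50 nM at 4 weeks, but its arrays overlapped those of other groups. The variant median of 4w50 nM array 3 (-0.069) lay above those of 4w5 nM array 3 (-0.145) and 1w0 nM array 3 (-0.172). The replication-dependent median minus the variant median at 4 weeks was -0.02 ± 0.06 with vehicle, -0.29 ± 0.23 with 5 nM and 0.25 ± 0.13 with 50 nM, where its SD within groups, pooled over the 6, was 0.159. In the fit, the median change of replication-dependent genes minus that of variants was -0.33 with 5 nM, 0.20 with 50 nM and 0.29 for 50 over 5 nM at 4 weeks, and -0.04 and -0.17 with 5 and 50 nM at 1 week. These are descriptions, with no test of the class, and they turned on which probe sets were read: without the filter the 4-week 5 nM value was 0.075, and without probe sets whose suffix is s or x the 4-week 50 nM value was -0.29.

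**Figure D4:**
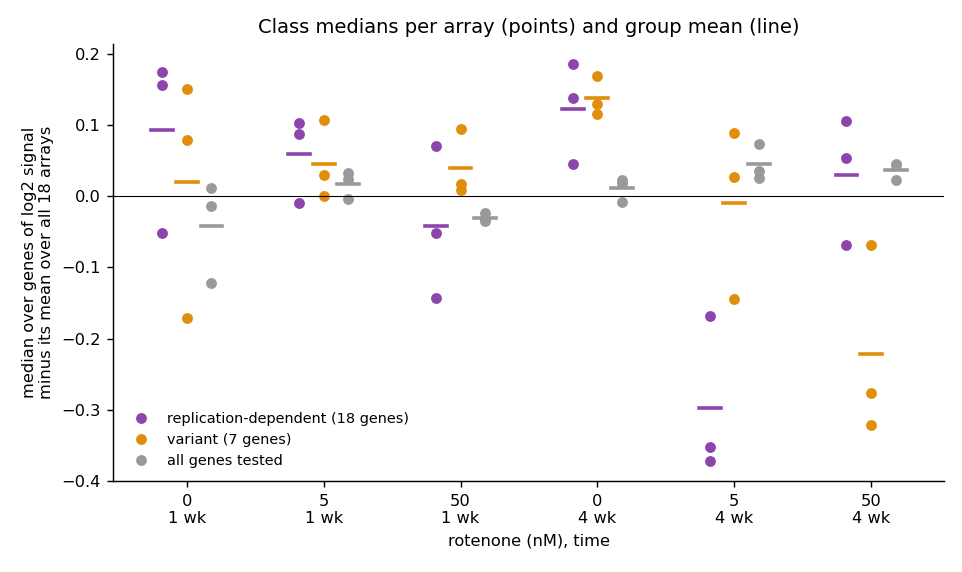
Median over 18 replication-dependent histone genes, 7 variant histone genes and all genes tested of the log2 signal minus its mean over all 18 arrays. Points are arrays and short lines the mean of each group, in the 6 groups by week and dose. The replication-dependent median is lowest with 5 nM at 4 weeks (mean -0.30) and the variant median with 50 nM at 4 weeks (mean -0.22).

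Of 14 listed genes that transcribe, process or degrade histone mRNA, 8 were tested, and at 4 weeks 3 rose and 0 fell with 5 nM (median 0.24), and 2 rose and 1 fell with 50 nM. Over all genes the shares were 18.5% higher and 14.1% lower for 5 nM, and 23.3% higher and 17.6% lower for 50 nM, so the 2 rises of 8 with 50 nM (25%) were near that share. CASP8AP2, the FLASH protein that starts histone pre-mRNA cleavage, rose by 0.78 ± 0.14 with 5 nM and 1.17 ± 0.14 with 50 nM (limma adjusted p = 0.000519 and 1.09e-05). ZNF473, which works with the U7 particle in that cleavage, rose by 0.68 ± 0.16 and 0.61 ± 0.16 (adjusted p = 0.00384 and 0.00601). Both fell at 1 week with 50 nM, by 0.51 ± 0.14 and 0.85 ± 0.16 (limma adjusted p = 0.0149 and 0.00172), and their changes differed between the weeks by 1.69 ± 0.20 and 1.46 ± 0.23 at that dose (adjusted p = 5.85e-06 and 6.91e-05). With the doubted arrays exchanged, the 1-week call of CASP8AP2 was lost (0.0764), and the other 3 of these calls were kept there and all 4 without both doubted arrays. NPAT, the coactivator of histone gene transcription, rose by 0.53 ± 0.19 with 5 nM and was lower with 50 than with 5 nM by 0.61 ± 0.19 (limma adjusted p = 0.0438 and 0.0388). UPF1, which takes part in histone mRNA decay, fell by 0.49 ± 0.19 with 50 nM (limma adjusted p = 0.0427). SLBP, named after its values were seen, changed by 0.00 ± 0.14 with 5 nM and 0.10 ± 0.14 with 50 nM at 4 weeks, without a call.

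Of 22 tested histone chaperones, which carry histones to DNA, 5 nM at 4 weeks gave 2 rises and 7 falls (9.09% and 31.8%), where 18.5% of all genes rose and 14.1% fell. With 50 nM there were 5 rises and 6 falls (22.7% and 27.3%), where 23.3% of all rose and 17.6% fell. ATRX, which with DAXX deposits H3.3, rose by 0.82 ± 0.14 and 1.13 ± 0.14 with 5 and 50 nM (limma adjusted p = 0.000366 and 1.67e-05), and CABIN1, of the HIRA complex, fell by 0.66 ± 0.13 and 0.78 ± 0.13 (adjusted p = 0.00135 and 0.000219). ASF1A, a carrier of H3 and H4, rose by 0.83 ± 0.13 with 50 nM (limma adjusted p = 0.000115), and SSRP1, a subunit of the FACT complex, fell by 0.41 ± 0.10 with 5 nM (adjusted p = 0.00377). At 1 week, ASF1B, the paralog of ASF1A that goes with proliferation, rose by 1.58 ± 0.29 with 5 nM and 1.49 ± 0.29 with 50 nM (limma adjusted p = 0.00342 and 0.00187). It was also higher by 1.25 ± 0.29 between vehicle arrays of 4 weeks and 1 week (limma adjusted p = 0.0205). These calls were kept without both doubted arrays and with them exchanged. All 3 differences were taken against the same 1w0 nM arrays, of which array 3 stood apart, and neither setting changes those arrays. Of 36 tested DNA replication genes, 5 nM at 4 weeks gave 1 rise and 6 falls (median -0.22), and 50 nM gave 2 rises and 7 falls (median -0.26). The falls were 16.7% and 19.4% of the list, near the 14.1% and 17.6% of all genes that fell, and the rises were 2.78% and 5.56%, against 18.5% and 23.3% of all. The median of the replication genes on single arrays was lowest on 1w0 nM array 3 (-0.54) and 4w5 nM array 3 (-0.45), on the scale of the class medians above. LIG1, the replicative DNA ligase, fell by 0.76 ± 0.20 and 0.74 ± 0.20 (limma adjusted p = 0.00768 and 0.00656). Of 23 genes of G2 and mitosis, 5 nM gave 3 rises (13%, where 18.5% of all genes rose) and 0 falls (where 14.1% of all fell). At an unadjusted p below 0.05 limma passed 3 of the 23 (13%), where 43.4% of all genes passed. With 50 nM there were 1 rise and 7 falls (30.4%, where 17.6% of all fell), with UBE2C, a mitotic ubiquitin carrier, falling by 1.00 ± 0.26 and TTK, a spindle checkpoint kinase, rising by 0.69 ± 0.16 (limma adjusted p = 0.00544 and 0.00224). With 50 against 5 nM, 4 of the 23 were lower and 0 higher, where 7.07% of all genes were lower and 9.92% higher. Cyclin B1, CCNB1, was lower with 50 nM by 1.39 ± 0.34 (limma adjusted p = 0.00976).

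Most of the replication-dependent genes lie on chromosome 6, and the other genes of that chromosome were read beside them. With 50 nM at 4 weeks, 176 of 485 other chromosome 6 genes rose and 56 fell (median 0.21), where 23.3% of all 9162 genes rose and 17.6% fell, whereas 0 of 15 chromosome 6 histone genes of the clusters rose and 4 fell. Of 15 other tested genes that lie between the outermost of these histone genes, 9 rose and 1 fell (median 0.41). With 5 nM, 60 of the 485 rose and 88 fell, where 18.5% and 14.1% of all genes did, and of the 15 neighbours 2 rose and 2 fell. Between 50 and 5 nM, 145 of the 485 were higher and 10 lower, where 9.92% of all genes were higher and 7.07% lower, and of the clustered histone genes of the chromosome 3 of 15 were higher and 1 lower.

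Several other measures moved with the 4-week groups. Over 12 fibroblast markers, 2 of them with a median under 50, the signal was summed. At 4 weeks the sum was 4412 to 5183 with 5 nM, 4393 to 4825 with 50 nM and 6398 to 6586 with vehicle. It was also low, 4103 to 4546, with vehicle at 1 week. Of the 10 tested, 5 nM gave 4 falls and 1 rise, and 50 nM 5 falls and 0 rises, beside the shares of all genes given above. In sign, 6 of the 10 changes with 5 nM were negative and 4 positive. The mean of COL1A2 was 1097 with 5 nM and 3142 with vehicle at 4 weeks, and that of COL1A1 557 and 942. Means of COL3A1 (1173 and 830), DCN (1024 and 745) and LUM (365.5 and 103) were higher with 5 nM. For 7 blood and endothelial markers, 4 of them with a median under 50, the sum was 1549.8 to 1829 with 5 nM at 4 weeks. It was 412 to 484 with 50 nM and 578 to 670.3 with vehicle at 4 weeks, and 318 to 1306 with vehicle at 1 week. CD14, LYZ and VWF did not exceed 23.8 on any array, and PTPRC carried the rise of the sum, with means of 1483 with 5 nM and 417 with vehicle. The sum for the Ewing and neuroepithelioma markers was 16375 to 19534 with 5 nM and 11752 to 14149 with 50 nM, against 16273 to 16911 with vehicle at 4 weeks. With vehicle at 1 week it was 10357 to 17381. The hybridisation controls were lower on all 6 rotenone arrays of 4 weeks than on the other 12, as given above. The log2 actin 3' to 5' ratio was higher on these 6 than with vehicle at 4 weeks. With 5 nM it was 0.06, -0.01 and 0.09, within the range of 1-week arrays (-0.22 on 1w0 nM array 1 to 0.13 on 1w0 nM array 3). The part of any of these in the histone results was not tested.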

How the data were processed

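The deposited values were linear signal intensities per probe set, which the authors computed from HG-U133A arrays with the dChip model and normalised between arrays. No column was left unused, and the values were set to at least 16 and taken to log2. Probe sets with 1 gene symbol that reached 50 on 3 or more of the 18 arrays were tested with limma 3.58.1 in R 4.3.3 (6 group means, 12 residual degrees of freedom, moderated with an intensity trend), with Benjamini-Hochberg adjustment over the 13711 probe sets. Genes were read by their probe set of highest mean log2 signal. Per array, precision is limited by the 3 arrays of each group, since intensities carry no counts. Named were all variants, the 5 largest called rises and falls per comparison, probe sets of 1 gene or of 2 doses that disagreed, and up to 3 called genes per list. Members and lists were chosen with earlier results of these data known. Array labels were kept as given. Alternatives covered the floor, filter, scaling, started log, suffix, 1 probe set per gene, the samples fitted, trend, array weights, replicate block, the methods' t-test, each array and both doubted 1-week arrays left out, and, chosen after seeing the data, the doubted arrays exchanged. For a single probe set, every setting tried means every setting that still tested it, so a setting that removed the probe set was not counted.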

Additional observations from a re-analysis of the deposited data

Results flagged for a closer look

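Each result in this section is a histone probe set whose change with rotenone against vehicle differed between 4 weeks and 1 week by a limma test of that difference (4 weeks minus 1 week, log2 scale, adjusted p below 0.05 over all tested probe sets). The vehicle arrays of each week enter both doses, so the 5 nM and 50 nM values of a gene are not independent.

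With 5 nM, the change was more negative at 4 weeks for H1-2 (-2.04), H2AC25 (-1.16), H4C7 (-1.05), H2BC12L (-1.02), H2BC6 (-0.97) and H2BC5 on 222067_x_at (-0.80) among replication-dependent genes. Among variants it was more negative for H2AX on 213344_s_at (-0.88) and for the 3 probe sets of MACROH2A1, 214501_s_at (-0.82), 214500_at (-0.73) and 207168_s_at (-0.38). It was more positive for H4C11 (1.48) and H4C5 (0.76). The call of H4C5 was kept in 17 of 31 settings, H2BC5 in 15 of 30 and MACROH2A1 on 207168_s_at in 18 of 31. That of H2BC6 was kept in 19 of 31, H2BC12L in 21 of 31 and H2AC25 in 22 of 32. All of these were lost without both doubted 1-week arrays. H1-2, H4C7, H4C11, H2AX and MACROH2A1 on 214501_s_at kept these calls in every setting tried, including without each array in turn and without both doubted 1-week arrays.

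With 50 nM, the change was more negative at 4 weeks for H2BC12 (-1.18), H2BC12L (-0.95), H4C7 (-0.92) and H1-2 (-0.74) among replication-dependent genes. Among variants it was more negative for H2AX on 205436_s_at (-2.37), 212525_s_at (-1.92) and 213344_s_at (-1.20), H2AZ2 on 212206_s_at (-0.89), MACROH2A2 (-0.66) and MACROH2A1 on 214501_s_at (-0.61). It was more positive for H4C11 (1.53), H4C5 (0.78) and the variant H3-3A (0.54). The calls of H1-2, H2BC12, H4C7, H4C11, H2AX on its 3 probe sets and MACROH2A1 were kept in every setting tried, whereas those of H2AZ2 and MACROH2A2 were each lost without any 1 of 14 arrays. The call of H2BC12L was kept in 20 of 31 settings, H3-3A in 23 of 31 and H4C5 in 24 of 31. With the doubted arrays exchanged, the calls of H4C5, H2BC5 and MACROH2A1 on 214500_at with 5 nM and of H2AZ2, MACROH2A2 and H3-3A with 50 nM were lost.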

How the results depend on the processing

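No result turned its direction in a single histone probe set, and limma's calls of single probe sets were kept in 1691 of the settings run over them and lost in 342. Beside left-out arrays, the fit without the filter ended 4-week calls of H2AZ2, H2BC13, H2BC5, H2BC6, H2AC4, H2AX, MACROH2A2 and H2AC25, median scaling those of H2AZ2, MACROH2A1 and H2BC13, the fit of only the groups compared those of H2AZ2, MACROH2A1, H2AX and H2AC6, the fit without an intensity trend those of H2AZ2, MACROH2A1, H2AX and MACROH2A2, the replicate block those of H2AZ2, H2BC13, H2AX and MACROH2A2, and quantile normalisation that of H2AC4, each on 1 or more probe sets and comparisons. The counts of called histone probe sets and the difference between class medians (replication-dependent genes minus variants, log2) moved more, and the cause was not tested except where the setting itself removes probe sets or arrays. The main counts were 4 and 4 at 1 week with 5 and 50 nM, 14 and 11 at 4 weeks, 9 for 50 against 5 nM at 4 weeks, 0 at 1 week, 1 between vehicle weeks, and 12 and 13 for the difference between weeks with 5 and 50 nM.

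Without probe sets whose suffix is s or x, the counts were 2 and 0 at 1 week, 6 and 3 at 4 weeks, 4 between doses at 4 weeks, and 5 and 5 between weeks, and the class difference was -0.25 with 5 nM at 1 week, -0.54 and -0.29 with 5 and 50 nM at 4 weeks, and -0.17 between vehicle weeks. With 1 probe set per gene the counts were 2 with 50 nM at 1 week, 7 with 50 nM at 4 weeks and 0 between vehicle weeks. Without the filter the count with 5 nM at 1 week was 1 and the class difference with 5 nM at 4 weeks 0.075. With a filter at 100 the class difference was -0.67 with 5 nM, 0.031 with 50 nM and 0.69 between doses at 4 weeks. With only the groups compared in the fit the counts were 0 and 1 at 1 week, 17 with 50 nM at 4 weeks and 0 between vehicle weeks. With array weights they were 1 with 5 nM at 1 week, 3 between doses at 1 week, 23 and 22 at 4 weeks, 18 between doses at 4 weeks (class difference 0.47) and 2 between vehicle weeks. The methods' t-test with a fold limit of 2 gave 0 and 0 at 1 week, 3 and 3 at 4 weeks, 3 between doses and 0 between vehicle weeks, and after Benjamini-Hochberg 0 and 0, 5 and 7, 2 and 0. Without both doubted 1-week arrays the counts were 0 with 5 nM at 1 week and 6 for the difference between weeks with 5 nM, and with them exchanged 1 with 5 nM at 1 week.

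Leaving out each array in turn gave 0 to 4 and 1 to 6 calls with 5 and 50 nM at 1 week, 8 to 17 and 7 to 14 at 4 weeks, 3 to 10 between doses at 4 weeks, 0 to 0 at 1 week, 0 to 2 between vehicle weeks, and 6 to 15 and 8 to 14 between weeks. The class difference then ran between -0.22 and -0.0024 with 5 nM and -0.26 and -0.13 with 50 nM at 1 week, -0.41 and -0.099 with 5 nM and 0.12 and 0.29 with 50 nM at 4 weeks, 0.16 and 0.45 between doses at 4 weeks, -0.13 and -0.0030 at 1 week, and -0.15 and 0.12 between vehicle weeks. Same-numbered arrays did not steadily deviate together (11 of 45 pairs correlated above 0.1, from -0.50 to 0.36), and the samples were treated as unpaired. The deviations were taken from means of 3 arrays, some with an array that stood apart, so this check cannot exclude pairing. With the replicate block the count with 5 nM at 1 week was 0, and the others were 4 with 50 nM at 1 week, 12 and 10 at 4 weeks, 6 between doses at 4 weeks, 1 between vehicle weeks, and 11 and 11 between weeks. Replication-dependent probe sets near 50 are limited by dim signal, and 24 of the 58 could not be tested.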
